A study of Mus musculus with 2 samples.

Results

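Mitotic kinesins, centromere proteins, cyclins and the kinases and ubiquitin ligase that drive cell division were compared between 2 arrays of mouse cells labelled as lymphoma. The genes were taken by symbol: kinesins (Kif and a digit), centromere proteins (Cenp), Bub, Aurora (Aurk) and Polo-like (Plk) kinases, the Ndc80 complex (Ndc80, Nuf2, Spc24, Spc25), the anaphase-promoting complex (Anapc), cyclins A, B, D and E, symbols that begin with Cdc2, and Ttk, Mki67 and Top2a. This gave 104 genes, with 245 probe sets, of 18193 genes named from a single symbol on arrays of 45101 probe sets. Each gene has the value of its probe set with the highest mean intensity over both arrays. The serum array held RNA of cells kept in serum-containing medium, and the co-culture array held RNA of cells co-cultured with endothelial cells, the lining cells of blood vessels. The labels do not name the lymphoma line, its genotype, the strain, the time in culture, the medium of the co-culture, the source of the endothelial cells or whether the cell types were parted before RNA was taken. With 1 array per condition no difference has a test between cultures, and no p-value is given. Values are linear intensities, and log2 differences are co-culture minus serum after every value under a floor of 44.3, the median of all values of both arrays, was raised to the floor.

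The labelled cell types were checked against their markers, where a gene is called measured when its probe set exceeded the floor in either culture. Of 13 B-lineage and leukocyte markers with a probe set 4 were measured, none reached 200, and Ptprc (21.5 and 3.14), Cd79a (34.7 and 30.9) and Pax5 (0.781 and 9.58) were under the floor on both arrays; the summed intensity of the list was 538 in serum and 512 in co-culture. The 4 measured were Ebf1 (161 and 85.3), Cd53 (139 and 64.3), Coro1a (75.5 and 125) and Blk (27.0 and 126). The lymphoma label thus has little support from these markers, as the other 9 were at or under the floor on both arrays. Of 18 endothelial markers 3 were measured: Egfl7 (473 and 532), Flt1 (93.3 and 26.4) and Eng (36.5 and 58.5). The summed intensities of the list were 819 and 953, of which Egfl7 held the largest part. Pecam1 (21.3 and 18.4), Cdh5 (19.6 and 44.1) and Kdr (19.5 and 38.4) were under the floor on both. In bulk RNA fewer dividing cells and less RNA per cell cannot be told apart.

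A dividing cell passes from growth through DNA copying to mitosis under cyclins, proteins that switch on cyclin-dependent kinases. D and E cyclins act before and at the start of DNA synthesis, and A and B cyclins act from DNA synthesis to mitosis. In mitosis the centromere proteins build the kinetochore, the Ndc80 complex binds it to spindle microtubules, kinesins shape the spindle and move chromosomes, and the Bub and Ttk kinases hold back the anaphase-promoting complex until every chromosome is attached. That complex, a ubiquitin ligase, then marks cyclin B for destruction and the cell divides. Many of these genes are transcribed late in the cell cycle from promoters with a cell cycle homology region, bound by the DREAM and MuvB complexes, and CCAAT boxes, bound by NF-Y.

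The promoters show features that the choice by symbol did not use. RefSeq windows on GRCm38.p6 from 250 bases before to 50 after the annotated start were found for 79 of the 91 measured genes of the group. Words were searched on both strands: TTTGAA for the cell cycle homology region, CCAAT for the CCAAT box, and TTTGGCGC, TTTCCCGC, TTTGCCGC and TTTCGCGC for E2F, with no overlap barred between words. A gene was counted when any of its windows held the word. TTTGAA was present for 29 of the 79 genes (36.7%), against 14.4% of 9385 measured genes with a window and 20.2% of all 27025 genes with a window. It was present for 9 of 12 mitotic kinesins, 3 of 4 spindle checkpoint genes, 5 of 21 centromere proteins and 3 of 13 genes of the anaphase-promoting complex, but for 2 of 13 other kinesins. CCAAT was present for 57.0% of the group's genes with a window, against 43.4% of measured genes and 41.1% of all genes. An E2F word was present for 10.1%, against 4.83% and 2.6%. A match is a description of letters and not a shown binding site. The following windows, from 200 bases before to 30 after the start and with matches in capitals (TTCAAA and ATTGG are matches on the opposite strand), are those of the 6 genes that were at least 2-fold lower in co-culture (Kif13a, Kif26b, Cenpm, Anapc13, Ttk and Mki67) and of 3 genes within 2-fold, the lower Ccnb2 and the higher Cenpa and Ccne1. The 3 were picked with their values known.
Kif13a, chr13:46929689-46929918, - strand: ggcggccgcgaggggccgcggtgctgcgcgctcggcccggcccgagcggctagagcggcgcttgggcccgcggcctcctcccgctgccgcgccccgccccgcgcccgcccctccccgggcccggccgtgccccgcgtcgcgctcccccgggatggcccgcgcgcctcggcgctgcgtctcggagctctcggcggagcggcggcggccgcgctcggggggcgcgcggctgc
Kif26b, chr1:178528925-178529154, + strand: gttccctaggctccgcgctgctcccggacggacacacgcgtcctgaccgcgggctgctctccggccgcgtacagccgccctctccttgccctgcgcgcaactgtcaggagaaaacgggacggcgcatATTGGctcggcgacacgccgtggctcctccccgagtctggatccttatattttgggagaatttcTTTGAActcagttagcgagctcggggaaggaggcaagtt
Cenpm, chr15:82244307-82244536, - strand: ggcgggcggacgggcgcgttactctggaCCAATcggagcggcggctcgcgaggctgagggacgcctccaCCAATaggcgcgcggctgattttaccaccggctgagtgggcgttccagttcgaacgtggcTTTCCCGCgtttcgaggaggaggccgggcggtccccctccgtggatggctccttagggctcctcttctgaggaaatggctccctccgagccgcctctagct
Anapc13, chr9:102626096-102626325, + strand: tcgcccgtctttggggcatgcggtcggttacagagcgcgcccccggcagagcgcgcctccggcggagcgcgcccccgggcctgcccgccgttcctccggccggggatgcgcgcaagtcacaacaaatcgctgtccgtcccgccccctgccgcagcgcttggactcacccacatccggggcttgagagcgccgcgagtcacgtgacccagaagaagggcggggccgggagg
Ttk, chr9:83834489-83834718, + strand: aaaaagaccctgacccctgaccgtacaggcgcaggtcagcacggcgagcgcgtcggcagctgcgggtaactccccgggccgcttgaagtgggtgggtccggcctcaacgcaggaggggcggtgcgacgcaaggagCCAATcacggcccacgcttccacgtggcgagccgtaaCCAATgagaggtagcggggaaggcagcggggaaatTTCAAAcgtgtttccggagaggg
Mki67, chr7:135716350-135716579, - strand: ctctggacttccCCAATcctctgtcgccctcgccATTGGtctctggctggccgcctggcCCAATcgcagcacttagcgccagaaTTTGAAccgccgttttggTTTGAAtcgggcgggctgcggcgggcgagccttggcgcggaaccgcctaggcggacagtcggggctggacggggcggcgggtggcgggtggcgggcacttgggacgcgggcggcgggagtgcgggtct
Ccnb2, chr9:70421525-70421754, - strand: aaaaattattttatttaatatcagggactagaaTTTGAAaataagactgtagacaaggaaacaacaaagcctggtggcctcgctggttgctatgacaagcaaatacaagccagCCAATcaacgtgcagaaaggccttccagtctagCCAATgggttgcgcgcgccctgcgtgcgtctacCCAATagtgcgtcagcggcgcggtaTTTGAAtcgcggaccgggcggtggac
Cenpa, chr5:30666686-30666915, + strand: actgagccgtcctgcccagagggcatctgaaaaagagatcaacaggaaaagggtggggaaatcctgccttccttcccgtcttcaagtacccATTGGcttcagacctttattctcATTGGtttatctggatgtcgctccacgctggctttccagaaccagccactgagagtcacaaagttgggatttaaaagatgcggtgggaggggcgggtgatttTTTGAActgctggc
Ccne1, chr7:38107461-38107690, - strand: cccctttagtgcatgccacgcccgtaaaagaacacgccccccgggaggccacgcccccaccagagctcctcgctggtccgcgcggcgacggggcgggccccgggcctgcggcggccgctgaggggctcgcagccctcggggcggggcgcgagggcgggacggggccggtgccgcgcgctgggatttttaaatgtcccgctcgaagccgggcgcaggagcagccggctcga
The words did not fully part lower from higher genes. Of the 23 measured genes with both TTTGAA and CCAAT, 18 lay below 0 and 5 above. Of the 56 without both, 33 lay below 0 and 23 above. Both words were found, for example, in Kif26b, Ttk, Mki67 and Ccnb2, lower by the probe set used, and in the higher Cenpa, Cenpw, Plk1 and Kif14. A dimmer probe set of Ttk gave 0.86. Kif14 was under the floor in serum (35.5), and its TTTGAA lay 228 bases before the start. Cenpm has CCAAT and an E2F word, and Kif13a, Anapc13 and Ccne1 show no searched word in this stretch. In Ccnb2 the TTTGAA matches began 167 bases before and at base 5 after the start. The match of Kif26b lay 9 bases before the start, that of Ttk at base 8 on the opposite strand, that of Cenpa at base 17, and those of Mki67 116 and 98 bases before the start. Within 50 bases either side of the start, TTTGAA was found for 22 of the 79 genes (27.8%), against 3.87% of all measured genes.

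**Figure D1:**
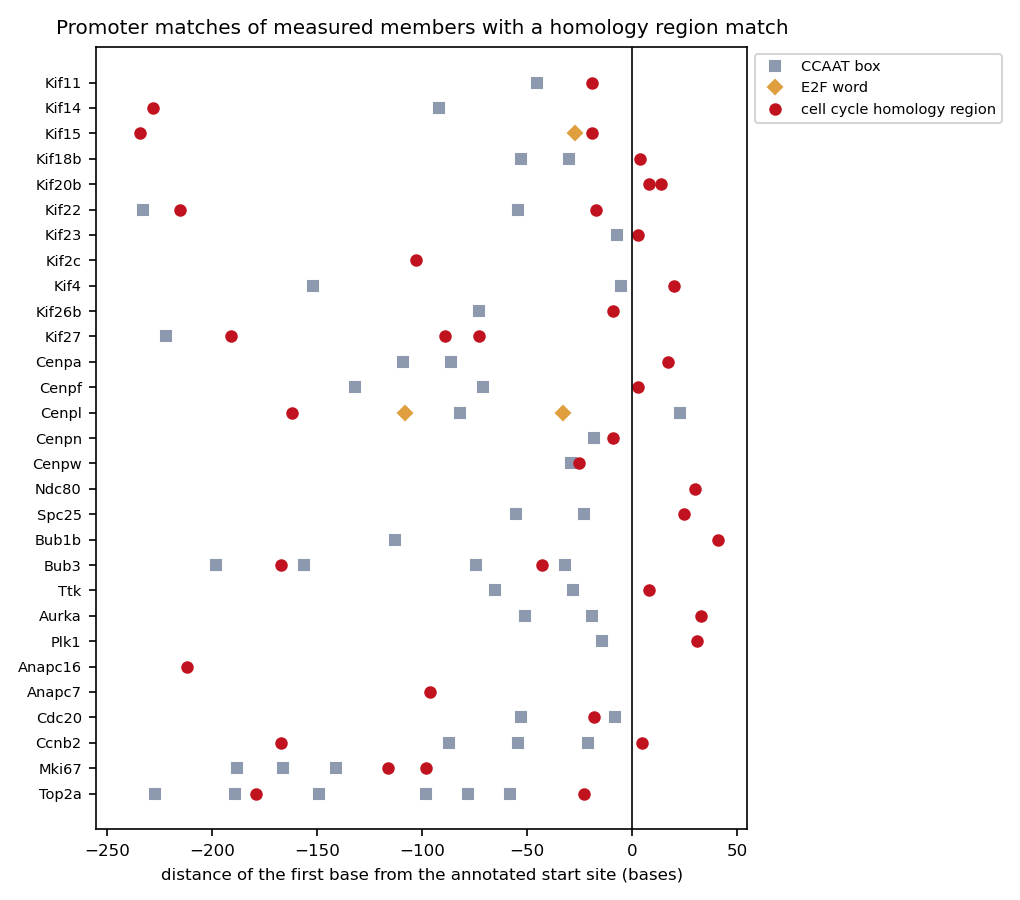
Positions of promoter matches for the 29 measured genes of the group with TTTGAA (cell cycle homology region, red circles), together with CCAAT boxes (grey squares) and E2F words (yellow diamonds); the x axis is the distance of a match's first base from the annotated start site in bases, and rows are genes by role. Matches of TTTGAA for 22 genes lie within 50 bases of the start.

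Of the 104 genes, 91 were measured. The other 13 were at or under the floor on both arrays by the probe set used: Ccna1 and Ccnb3, cyclins best known from germ cells, Plk2 and Plk5, Cdc20b, Kif2b and the kinesins Kif12, Kif17, Kif1a, Kif28, Kif5a, Kif6 and Kif9. Kif1a and Kif5a, which carry cargo along axons, had intensities of 4.43 and 22.3 in serum and of 5.05 and 27.9 in co-culture. No other probe set of these 13 genes was above the floor but 1 of Kif5a. Ccnb1, the main mitotic B cyclin, was not analysed here. The core division machinery was thus above the floor in both cultures: all 21 centromere proteins, all 4 genes of the Ndc80 complex, all 4 checkpoint genes and all 14 genes of the anaphase-promoting complex were measured.

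In co-culture, 0 of the 91 measured genes were higher by 2-fold or more and 6 (6.59%) were lower by 2-fold or more, whereas 4.6% of all 11542 measured genes were higher and 10.1% were lower. The share of lower genes was therefore not above that of the arrays as a whole. The median log2 difference was -0.18 in the group and -0.06 over all measured genes, and 57 of the 91 genes (62.6%) lay below 0, against 54.1% of all. The whole group ran from -2.91 to 0.96. The 6 lower genes were Kif13a, Kif26b, Cenpm, Anapc13, Ttk and Mki67. The nearest genes inside the limit were Kif3a (-0.96) and Spc25 (-0.92) on the lower side and Kif14 (0.96) on the higher side, while Mki67 (-1.01) and Ttk (-1.04) lay just past it. The count on the higher side depends on the treatment of dim values and of scale: with a floor at percentile 25 there were 4 higher and 8 lower genes, after subtraction of the local median at the same intensity 2 and 5, and after scaling to the bacterial spikes 0 and 10.

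**Figure D2:**
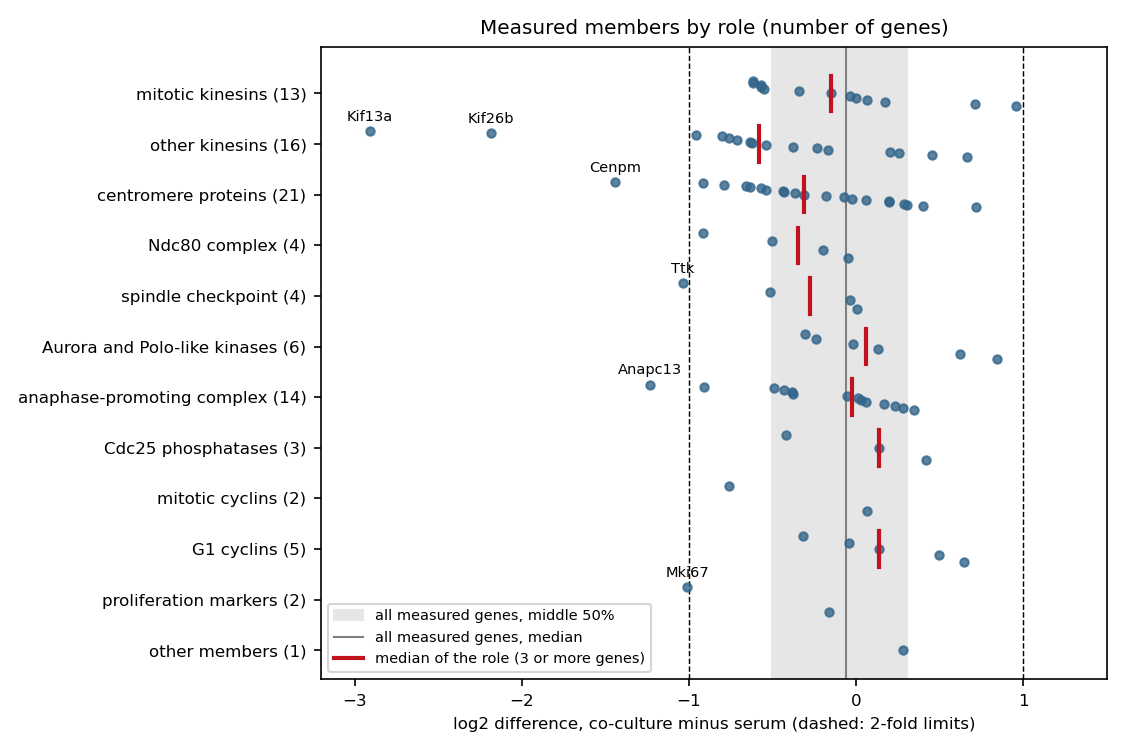
Log2 difference (x axis, co-culture minus serum) of each of the 91 measured genes, 1 point per gene, in rows by role; red bars are role medians, the grey band and line are the middle 50% and median of all measured genes, and dashed lines mark 2-fold. All 6 points past a dashed line lie on the lower side, and the row of other kinesins has a median of -0.58.

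The only repeat measure on these arrays is a second probe set of the same gene. Among the 52 genes of the group with several measured probe sets, the pooled within-gene SD of log2 differences was 0.58 (156 probe sets), against 0.60 over 5478 genes of the arrays. Most differences in the group are smaller than that SD. It covers probe and hybridisation error on the same RNA and not the spread between cultures. Dim and bright probe sets are pooled in it, so it is not specific to bright genes. All measured probe sets of a gene had the same sign for 26 of the 52 genes, and for 14 they lay on opposite sides of 0 and at least 1 apart. Dim probe sets tended to be higher in co-culture: of 46 probe sets of the group under 200 on both arrays 28 (60.9%) lay above 0, with a median of 0.19, while of 150 at 200 or more 59 (39.3%) did, with a median of -0.14. Over all probe sets the same shares were 61.7% and 47.9%. The ratio of 3′ to 5′ intensity, a sign of RNA length, was lower in co-culture for beta-actin (3.56 and 2.05), Gapdh (2.54 and 1.88) and Tfrc (13.2 and 5.03), and its part in the differences was not tested. Over all genes with a mean intensity of 200 to 1000 the median difference was -0.25, and the 32 genes of the group in that range had -0.41. From 1000 to 3000 the medians were -0.10 and -0.05 (30 genes), and at 3000 or more 0.03 and -0.04 (19 genes).

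**Figure D3:**
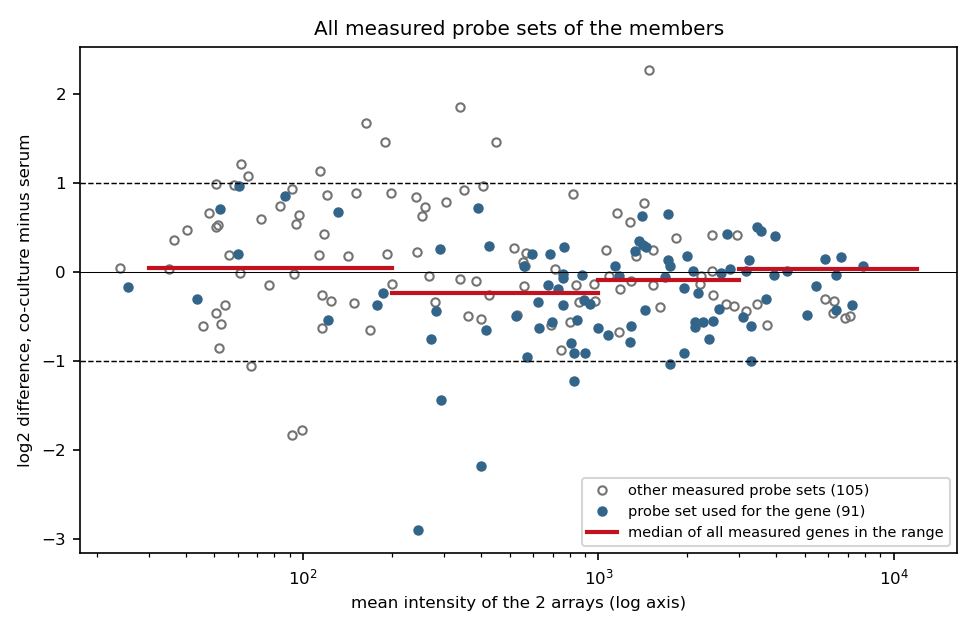
Log2 difference (y axis, co-culture minus serum) against the mean intensity of both arrays (x axis, log scale) for 196 measured probe sets of the group; filled points are the probe sets used for the 91 genes, open circles the other 105, red lines the median of all measured genes in 4 intensity ranges. Both kinds of point lie on either side of 0, and the filled points reach past -1 but not past 1.

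Among cyclins, the E cyclins were higher in co-culture and cyclin B2 was lower, all within 2-fold. Ccne1, which drives entry into DNA synthesis, had an intensity of 2857 in serum and 4029 in co-culture, a log2 difference of 0.50, and its other probe set gave 0.56 (1037 and 1524). Ccne2, its close relative, had 1340 and 2099, or 0.65, from its single probe set. Both E cyclins stayed above 0 under all 13 alternative settings, from 0.31 to 0.76. Several settings cannot change the value of a bright gene, so such a count was partly fixed in advance. Both values of Ccne1 were smaller than the SD between probe sets in the group, 0.58, and that of Ccne2 was little above it. Ccnb2, which acts with Cdk1 at mitosis, had 2981 in serum and 1761 in co-culture, or -0.76, and ranged from -0.95 to -0.70 over the settings. Ccna2, the A cyclin of DNA synthesis and G2, had 7712 and 8080 (0.07), and its other probe set gave -0.31. The sign of Ccna2 turned under 3 of 13 settings, and neither of its probe sets moved by as much as the SD between probe sets. The D cyclins, which respond to growth factors, differed little by their brightest probe sets: Ccnd1 had 3998 and 3876 (-0.04), Ccnd2 had 5556 and 6111 (0.14, and -0.38 to 0.41 by others) and Ccnd3 had 996 and 798 (-0.32). Other probe sets of Ccnd1 gave 0.66 (896 and 1416) and 0.96 (276 and 536), so the gene has no settled direction. Ccnb1ip1, named for binding cyclin B1 but known for its part in meiotic recombination, had 1304.5 and 1582.5 (0.28).

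The Cdc25 phosphatases, which remove inhibitory phosphates from cyclin-dependent kinases, did not move together. Cdc25c, the form of mitotic entry, had 2939 in serum and 2196 in co-culture (-0.42, and -0.20 by another probe set). Cdc25b had 2330.3 and 3111 (0.42), and Cdc25a, which acts at entry into DNA synthesis, had 1636 and 1796 (0.13). The other probe sets of Cdc25a were 1.13 and 1.85 higher on the log2 scale (71.6 to 157 and 147 to 530.1), and its value passed 2-fold when probe sets were averaged or their median was taken.

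The spindle checkpoint genes were lower or level. Ttk, the Mps1 kinase that starts checkpoint signalling at unattached kinetochores, had 2349 in serum and 1145 in co-culture, 2.05-fold lower. A dimmer probe set gave the opposite sign for Ttk (85.3 and 155, or 0.86), and with the mean over probe sets Ttk had -0.09. Bub1, a kinase that loads checkpoint proteins onto kinetochores, had 3624 and 2538 (-0.51), with -0.66 by its other probe set. Bub1b, the BubR1 protein that inhibits the anaphase-promoting complex, had 4359.6 and 4368 (0.00), but -0.37 by its other probe set (3048 and 2361), and its sign turned under 5 of 13 settings. Bub3, which anchors both, had 6449 and 6273 (-0.04). The other probe sets of Bub3 ranged from 0.01 to 0.98.

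All 4 genes of the Ndc80 complex, the microtubule coupler of the kinetochore, lay below 0, with a median of -0.35. Spc25 had 2553 in serum and 1352 in co-culture (-0.92), though a probe set near the floor gave 0.50. Ndc80 itself had 616 and 434 (-0.50), Spc24 had 782 and 682 (-0.20) and Nuf2 had 1191 and 1149.8 (-0.05). Nuf2 turned above 0 under 2 of 13 settings, so not every gene of the complex kept its sign.

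Of the 6 measured Aurora and Polo-like kinases 3 lay above and 3 below 0. Plk1, the Polo-like kinase of mitotic entry and spindle assembly, had 1105 in serum and 1698 in co-culture, 1.54-fold higher, from a single probe set. Its log2 difference of 0.62 was little above the SD between probe sets in the group, 0.58. Plk1 stayed above 0 under all 13 settings (0.43 to 0.74), of which several cannot change a bright gene with 1 probe set. Plk4, which starts centriole duplication, had 3096 and 3388 (0.13, and -0.34 by another probe set), and Plk3, linked to stress responses, had 62.2 and 112 (0.85), near the floor. Aurka, the kinase of centrosomes and spindle poles, had 2619 and 2588 (-0.02), and Aurkb, the catalytic part of the chromosomal passenger complex, had 2359.8 and 1999.5 (-0.24). Aurkc, best known from meiosis, had 54.8 and 32.9, so it was at least 1.24-fold lower. The median of these 6 genes, 0.06, turned below 0 under 3 of 13 settings.

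The anaphase-promoting complex held 7 genes above and 7 below 0, with a median of -0.02 that changed sign under 4 of 13 settings. Anapc13, a small subunit that helps assembly of the complex, had 1159 in serum and 493.9 in co-culture, 2.35-fold lower by its single probe set. It was past 2-fold under all 13 settings, but several of these leave a bright gene with 1 probe set unchanged. Anapc2, the cullin subunit that holds the catalytic core, had 1078 and 573 (-0.91), whereas Anapc11, the RING subunit that pairs with it, had 692 and 840.3 (0.28). Cdc20, the activator that the checkpoint inhibits, had 7346 and 5438 (-0.43), and its other probe sets gave -0.44 and -0.61. Cdc20 was thus lower by all 3 measured probe sets, each by less than 2-fold. Among the scaffold and arm subunits, Anapc4 had 5932 and 4223 (-0.49, and -0.14 by another probe set). Cdc27 had 6228 and 6993 (0.17), with other probe sets from -0.53 to 0.84, and Anapc1 had 3149 and 3172 (0.01), with others from -0.34 to 1.67. Anapc5 had -0.38 (8177 and 6277), with 4 other probe sets between -0.52 and -0.33 and a further one at 2.26 (513 and 2464). Anapc15, which helps release the checkpoint complex, had 1206 and 1529 (0.34), and Anapc16 had 1224 and 1438 (0.23) but -0.60 to -0.26 by its other probe sets.

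**Figure D4:**
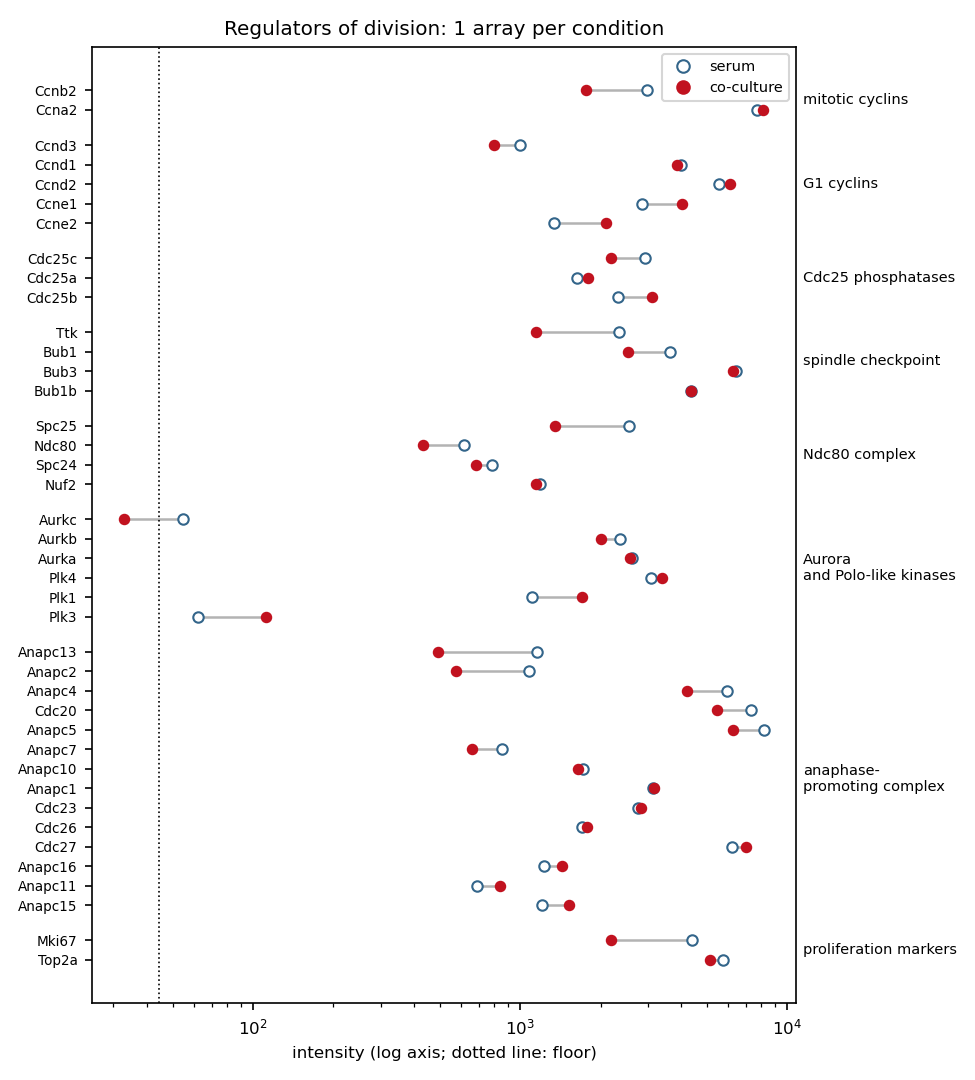
Intensities on the serum array (open circles) and the co-culture array (filled circles), on a log x axis, for 40 measured genes of 8 roles, from cyclins to the proliferation markers Mki67 and Top2a; the dotted line is the floor, rows are ordered by difference within a role, and levels of different genes are not comparable. The widest gaps are those of Anapc13, Ttk and Mki67, all lower in co-culture.

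The 2 proliferation markers differed from each other. Mki67, the Ki-67 protein that coats mitotic chromosomes, had 4395 in serum and 2184 in co-culture, 2.01-fold lower by its single probe set. It lay past 2-fold under 12 of 13 settings, of which several leave such a gene unchanged. Top2a, the topoisomerase that untangles sister chromatids, had 5746 and 5137 (-0.16), with 0.88 by a dimmer probe set.

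Centromere proteins were lower for 14 of 21 genes (66.7%), while 54.1% of all measured genes lay below 0. Their median of -0.31 stayed below 0 under all 13 settings (-0.50 to -0.16). Most of them had a mean intensity of 200 to 1000, where the median over all measured genes was -0.25. Cenpm, a subunit of the inner kinetochore network, had 429 in serum and 158 in co-culture, 2.72-fold lower by its single probe set, though with a floor at percentile 75 it had -0.14. Cenpk, its partner in the same subcomplex, had 1175 and 623 (-0.91), while Cenph and Cenpi, also of that subcomplex, had 0.06 (1113 and 1161) and -0.37 (1053 and 817). The 15 genes of the inner network, a set picked by function with the values known, had a median of -0.37, with 10 below 0 (66.7%). Cenpa, the histone variant that marks the centromere, had 3429 and 4524 (0.40, and -0.05 and 0.92 by other probe sets). Cenpe, a kinesin of the outer kinetochore that brings chromosomes to the spindle equator, had 1622 and 938 (-0.79), but 0.06 by another probe set (553 and 576). Cenpf, a large outer kinetochore protein of G2 and mitosis, had 762 and 749.6 (-0.02). Cenpp had 2701 and 1817 (-0.57, and -0.11 by another probe set), Cenpq had 1656 and 1229 (-0.43) and Cenpx, which also serves in DNA repair, had 2066 and 1823 (-0.18). Cenpv, a protein of the central spindle and centromere, had 4091 and 3301 (-0.31). On the higher side, Cenps, the partner of Cenpx, had 296 and 486 (0.72) and Cenpw, a histone-fold protein, had 1268 and 1562 (0.30, and 0.26 by another probe set). Cenps and Cenpx, which bind each other, thus differed in sign.

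Of the 13 measured mitotic kinesins 0 passed 2-fold, where 4.6% of all measured genes were higher and 10.1% lower. The median of these kinesins was -0.15. It was 0.06 after subtraction of the local median at the same intensity, and -0.34 after scaling to spikes, with a floor at percentile 75 or with only genes of at least 200. A set of 5 had nearly the same difference: Kif11 (3989 and 2605, -0.61), the motor that pushes spindle poles apart; Kif23 (1559 and 1018, -0.62) of the central spindle; Kif20a (2546 and 1713, -0.57), which carries the passenger complex to the midzone; Kif4 (833 and 562, -0.57) and Kif22 (2903 and 1978, -0.55), which bind chromosome arms. This set was picked with the values known. All 3 measured probe sets of Kif11 were lower, from -0.68 to -0.49. Kif23 had 1.45 by a dimmer probe set (102 and 278), and Kif22 had -0.40 and 0.42 by its other probe sets. By the probe set used, the other mitotic kinesins above the floor on both arrays differed less. Kif2c had 2083 and 2085 (0.00, but 1.45 by a dimmer probe set) and Kif2a had 1875 and 2115 (0.17, and up to 0.78 by others). Kif18a had -0.15, Kif18b -0.34 and Kif24 0.07 (0.585 by a dim probe set). Kif20b had -0.04 (891 and 869), but -0.88 by a probe set of like brightness (970 and 526). Kif14 and Kif15 were at or near the floor on the serum array (35.5 and 32.0), with 86.0 and 72.3 in co-culture, and so at least 1.94-fold and 1.63-fold higher.

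The other kinesins, which mostly carry cargo, had a median of -0.58, with 12 of 16 below 0. The median stayed below 0 under all 13 settings but ranged from -0.78 to -0.17, with -0.17 when dim genes were kept and -0.18 with the mean over probe sets. Kif13a, a carrier of endosomal cargo, had 431 in serum and 57.4 in co-culture, a log2 difference of -2.91. Its 4 other measured probe sets were lower too, from -1.84 to -0.59, and with a floor at percentile 75 it had -0.15. Kif26b, an unusual kinesin of kidney development, had 655 and 144, 4.54-fold lower by its single probe set (-0.75 with a floor at percentile 75), and its relative Kif26a had 2579 and 1671 (-0.63). Kif3a and Kif3b, which pair in a motor that builds cilia, had -0.96 (759 and 391) and 0.26 (265 and 317), with -0.50 to -0.14 and 0.20 to 1.07 by other probe sets. Kif21b had 1027 and 589 (-0.80, and 0.35 by another probe set), Kif16b had 1339.6 and 817 (-0.71, and -0.14 and 0.53 by others) and Kif1c had 1211 and 778 (-0.64). Kif5b, the common conventional kinesin heavy chain, had 2993 and 4099 (0.45), but its other measured probe sets split, with -0.37 (3892 and 3013) and -0.15 against 0.77 and 0.87. Kif1b had 553 and 635 (0.20), and its other probe sets ran from -0.61 to 0.74, so neither gene has a settled direction. Kif13b had 102 and 161 (0.67). Without these kinesins the other 75 measured genes had a median of -0.07, close to the -0.06 of all measured genes. Of the 75, 4 were lower and 0 higher by 2-fold or more, against 10.1% and 4.6% of all measured genes.

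**Figure D5:**
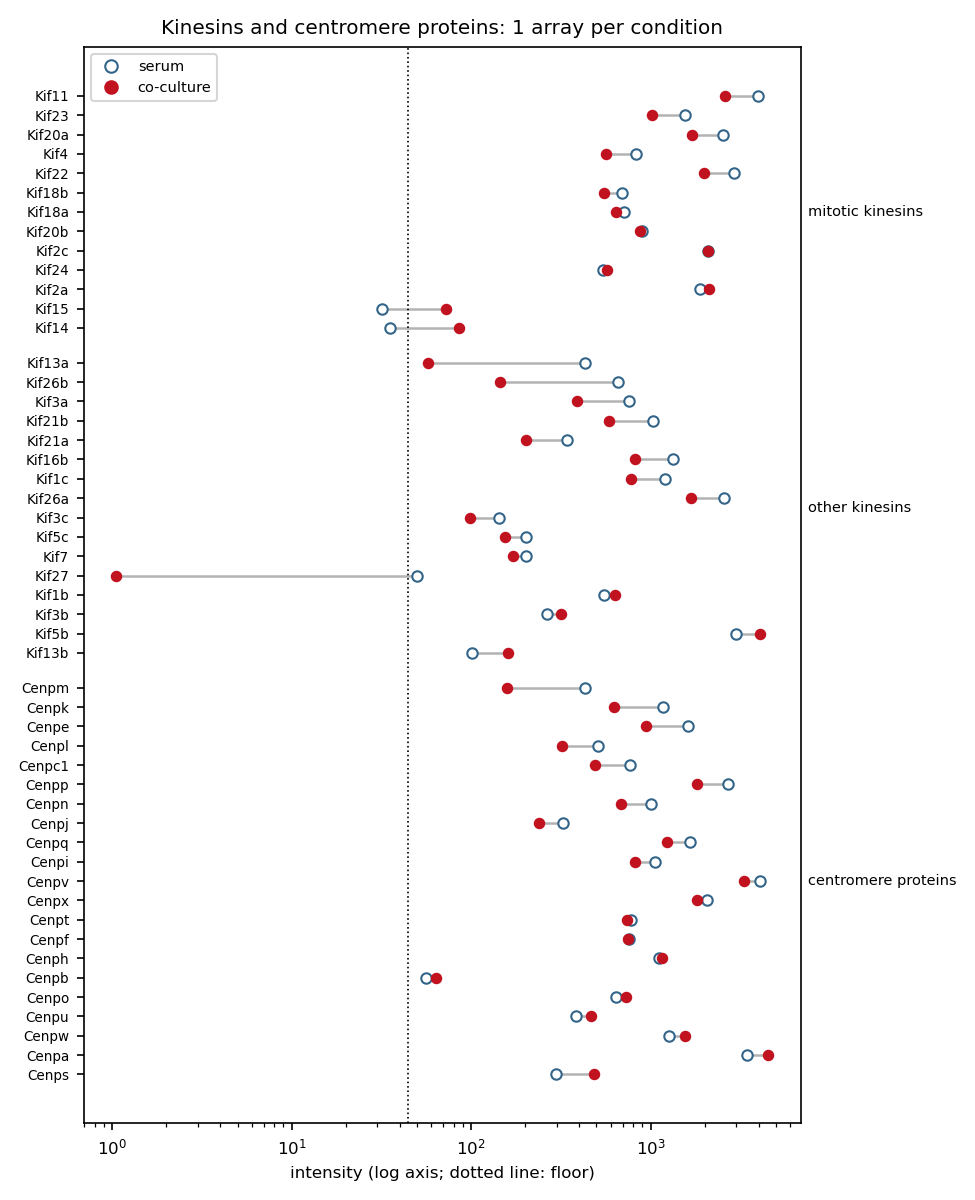
Intensities on the serum array (open circles) and the co-culture array (filled circles), on a log x axis, for 13 mitotic kinesins, 16 other kinesins and 21 centromere proteins; the dotted line is the floor, below which values have no order. Kif13a, Kif26b and Cenpm have the widest gaps with both values above the floor.

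Genes with promoter matches were compared as a description. The 29 measured genes of the group with TTTGAA had a median log2 difference of -0.34, with 21 below 0, and the 50 without it had -0.21, with 30 below 0. The 23 with both TTTGAA and CCAAT had -0.43, with 18 below 0, against -0.16 for the other 56. Over all measured genes the 550 with both words had a median of -0.07, as had the 8835 without both. The 8 genes of the group with an E2F word had a median of 0.16, with 5 above 0.

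Genes of the same processes that the choice by symbol left out were set beside them. Over all measured genes 4.6% were higher and 10.1% lower by 2-fold or more, and no list below exceeded either share. Of 65 other mitosis genes, all measured, 1 was higher and 3 were lower, with a median of -0.05: Troap was 2.27-fold higher (103 and 233), and Kntc1, a checkpoint protein, Spag5, a spindle protein, and Aspm, a spindle pole protein, were 2.21-fold, 2.04-fold and 2.02-fold lower. Of 45 DNA replication genes 0 passed 2-fold, with a median of -0.24 and 32 below 0 (71.1%, against 54.1% of all measured genes). Among them Rfc2 had -0.85 and Pold1 -0.84. Of 20 cyclin partners and G1 regulators Tfdp2, a partner of E2F factors, was 2.30-fold lower. That list had a median of 0.07, with 13 above 0 (65.0%, against 45.9% of all measured genes). Of the kinase partners of the cyclins, Cdk2, the partner of E cyclins, had 458 and 788 (0.78), Cdk1, the partner of B cyclins, had 4986 and 4987 (0.00), and Cdk4, of D cyclins, had 9135 and 8621 (-0.08). Cdk1 therefore stayed level where Ccnb2 was lower. These 3 were named with their values known.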

How the data were processed

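Biotin-labelled cRNA was made from total RNA of 2 samples of mouse cells, per the labels' protocols, and measured on arrays of 1 colour. The deposited table holds the authors' linear intensity per probe set; how they were scanned, background-corrected and scaled is not given in the sources used here. Both arrays had the same trimmed mean (2% off each tail, 500.0), with medians of 36.9 and 50.7. The number of arrays limits the precision. Genes came from the platform annotation, where a probe set had 1 symbol, control probe sets left out (34945 probe sets). Values were floored at the pooled median and put on the log2 scale, and 2-fold was the limit. Promoter windows were those of RefSeq, GRCm38.p6.

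Genes named were those past 2-fold, all cyclins, Bub, Aurora, Polo-like, Cdc25 and Ndc80 genes, Ttk, Mki67, Top2a, Cdc20, Cenpa, Cenpe and Cenpf, the brightest 5 and the 3 highest and 3 lowest of kinesins, centromere proteins and anaphase-promoting complex, and genes whose probe sets disagreed; others were named with their values known. The genes and lists were chosen with earlier results of these data known. The steps were tested on simulated data with changes planted in bright genes and less noise than the real spread between probe sets. That checks the code and not how reliable the differences here are. Of the alternatives, 11 were planned and 2 added after the data were seen. Python 3.11.15, numpy 2.4.6, pandas 2.3.3, scipy 1.17.1 and matplotlib 3.10.9 were used.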

Additional observations from a re-analysis of the deposited data

How the results depend on the processing

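The median log2 difference of the group, -0.18, stayed below 0 under all 13 alternatives; it was -0.37 after scaling to the bacterial spikes, -0.048 with no filter on dim genes and -0.10 after subtraction of the local median, an alternative added after the data were seen. Scaling to spikes moved the median of all measured genes from -0.06 to -0.25. The count of higher genes, 0, was 4 with a floor at percentile 25 and 2 after subtraction of the local median. It was 1 after subtraction of the overall median (Kif14) and 1 without probe sets marked as shared sequence (Kif2c). The mean over probe sets also gave 1, and so did the median, added later (Cdc25a both times). Over all measured genes the share higher was 12.7% with a floor at percentile 25 and 6.24% after subtraction of the local median. That share was 3.57% to 5.43% under the settings with 1 higher gene. The count of lower genes, 6, was 3 with a floor at percentile 75, where Kif13a, Kif26b and Cenpm no longer passed, and 10 after scaling to spikes. The cause was not tested. Of 846 values of 66 named genes under the alternatives 829 moved by less than 0.60, the SD between probe sets. Of the genes past 2-fold 0 changed sign. Several alternatives leave a bright gene unchanged or shift all bright genes alike. These counts, and the counts of settings given for single genes, were therefore partly fixed in advance. No paired analysis was possible because each condition has 1 array, and for the same reason no array could be left out. Signal near the floor limits Kif14, Kif15, Plk3, Aurkc and Kif27.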
